A study of Mus musculus with 15 samples.

Results

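The genes for insulin-like growth factor 1 (Igf1), its receptor (Igf1r) and 6 of the secreted IGF binding proteins (Igfbp2, Igfbp3, Igfbp4, Igfbp5, Igfbp6 and Igfbp7) were followed through 5 sorted cell populations. The members were chosen by symbol, and all 8 had a value among the 10222 gene symbols of the expression table. RNA from 15 libraries was sequenced, 3 from each population, and every mouse was a C57BL/6 reporter animal heterozygous for an Il33 allele that produces the fluorescent protein citrine. No treatment was given in the sources used, and neither age nor sex was stated there. PDGFRα+ CD34+ Sca1+ podoplanin+ mesenchymal stromal cells from mesenteric white adipose tissue (WAT) were sorted into citrine-positive and citrine-negative fractions, called Il33+ WAT-MSC and Il33- WAT-MSC. Lung supplied citrine-positive stroma (lung Il33+ MSC) and an EpCAM+ epithelial fraction, and WAT also supplied a CD31+ endothelial fraction. The surface gate of the lung stroma beyond citrine was not given in the sources used. The 3 replicates came from independent experiments, but how many mice each library pooled was not given.

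IGF1 is a secreted peptide hormone that liver releases into the circulation and that mesenchymal cells, adipose stroma included, also make for their own surroundings. It acts through IGF1R, a receptor tyrosine kinase related to the insulin receptor. The binding proteins IGFBP1 to IGFBP6 hold IGFs with high affinity and set how much of the ligand reaches the receptor, whereas IGFBP7 binds IGFs only weakly and is known as a matrix and vascular protein. Secreted proteases cut some binding proteins and free the ligand: pappalysin (Pappa) acts on IGFBP4, and stanniocalcins (Stc1, Stc2) inhibit it. No value was analysed here for Igfbp1, whose gene lies next to Igfbp3.

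On the mm10 assembly (GRCm38, with RefSeq positions), Igf1 lies on chromosome 10 (87858265 to 87937047) and Igf1r on chromosome 7 (67952257 to 68233668). Igfbp2 (72824480 to 72852474) and Igfbp5 (72858065 to 72874865) are neighbours on chromosome 1, with 5590 bases between them. Igfbp3 (7206086 to 7215498) and Igfbp4 (99040005 to 99052655) lie on chromosome 11, Igfbp6 on chromosome 15 (102144186 to 102149512) and Igfbp7 on chromosome 5 (77349240 to 77408045). Igfbp2 was represented by 1 of its 2 RefSeq mRNAs (NM_001310659), so its level refers to that transcript. Igf1 was represented by 4 of its 5.

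The Igf1 transcripts are shown by sequence because they differ in 2 coding places and are listed with separate values. They also differ in length, from 651 to 7052 bases. Igf1 starts at either of a pair of leader exons, each with its own start codon, and an alternative exon near the 3′ end of the coding sequence may be kept or skipped. The coding part of the first leader is at chr10:87859350-87859412, that of the second leader at chr10:87861371-87861385, and the alternative coding exon at chr10:87915298-87915349, all on the plus strand of GRCm38 (GENCODE M21 annotation). The start codon is in capitals.
First leader, coding part: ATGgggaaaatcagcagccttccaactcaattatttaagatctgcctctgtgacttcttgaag
Second leader, coding part: ATGaccgcacctgca
Alternative exon: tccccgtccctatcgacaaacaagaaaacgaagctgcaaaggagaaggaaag
The alternative exon is 52 bases long, so it changes the reading frame of the last exon, where 23 coding bases remain in place of 57. In rodents this exon marks the Eb form of the IGF1 precursor, and both forms contain the mature hormone.

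Promoter sequences are shown for the binding protein that separated the WAT stromal fractions (Igfbp5) and for the pair of members whose levels were most alike (Igfbp4 and Igfbp7). Each is the 250 bases before the RefSeq start on GRCm38.p6, read 5′ to 3′ on the strand of the gene. They lie at chr1:72874866-72875115 (minus strand) for Igfbp5, chr11:99040994-99041243 (plus strand) for Igfbp4 and chr5:77408046-77408295 (minus strand) for Igfbp7.
Igfbp5: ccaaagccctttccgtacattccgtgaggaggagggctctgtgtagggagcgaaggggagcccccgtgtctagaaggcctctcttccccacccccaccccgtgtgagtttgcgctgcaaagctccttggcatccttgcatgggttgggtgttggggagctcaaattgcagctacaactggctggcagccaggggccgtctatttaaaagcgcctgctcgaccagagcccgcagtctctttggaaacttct
Igfbp4: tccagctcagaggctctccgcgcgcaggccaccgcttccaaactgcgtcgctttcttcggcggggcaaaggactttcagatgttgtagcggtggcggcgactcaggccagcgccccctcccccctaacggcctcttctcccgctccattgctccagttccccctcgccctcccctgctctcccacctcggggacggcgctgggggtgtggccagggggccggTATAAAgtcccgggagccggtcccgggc
Igfbp7: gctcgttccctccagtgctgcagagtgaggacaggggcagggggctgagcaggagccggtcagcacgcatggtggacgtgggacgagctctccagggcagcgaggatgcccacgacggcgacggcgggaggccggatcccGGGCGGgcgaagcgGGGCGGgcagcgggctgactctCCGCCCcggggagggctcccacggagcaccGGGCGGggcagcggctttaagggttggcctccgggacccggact
Capitals mark exact matches, on either strand, to 3 short core promoter motifs. The first was TATAAA, bound by the general transcription machinery. The second was GGGCGG, a GC-rich element bound by Sp1. The third was CCAAT, bound by NF-Y, and no matches overlapped. Igfbp4 had 1 TATAAA, 28 bases before the start, and Igfbp7 had 4 GGGCGG matches. Igfbp5 had none of these letters in the window. Of 32851 promoters of this length, 12.4% held TATAAA, 32.7% held GGGCGG and 33.8% held CCAAT, and the 250-base windows of Igfbp4, Igfbp5 and Igfbp7 held 22, 10 and 26 CG pairs. The windows of Igfbp4 and Igfbp7 shared none of the 3 motifs. The start used for Igfbp4 lies inside the interval annotated for that gene, which begins further upstream.

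The levels were read in RPKM, a read density scaled to transcript length and to the mapped reads of the library, which the authors computed and which allows levels of different genes to be compared per length. The libraries held 42711843 to 60773158 alignments, and read counts per gene were not used, so errors are SDs over the 3 libraries of a population. Transcript levels of Il33 itself were 38.7 to 78.5 RPKM in Il33+ WAT-MSC and 4.31 to 6.76 RPKM in Il33- WAT-MSC. The summed RPKM of 8 stromal marker genes was 3932 to 8307 in the stromal populations. The endothelial libraries carried 8 endothelial marker genes at a summed 526 to 635 RPKM, against at most 64.4 RPKM in any stromal library, but they also held 1802 to 3739 RPKM of the stromal markers. In the epithelial libraries the secretory transcript Scgb1a1 alone made up 57.7% to 62.9% of the summed RPKM, which leaves less of that sum for every other gene. In sorted bulk RNA, fewer cells of a type and less RNA per cell cannot be told apart.

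Igf1, the ligand, was low in epithelial cells and higher in the other populations. Its level was 44.5, 81.5 and 95.9 RPKM in the Il33+ WAT-MSC libraries and 32.0, 41.3 and 85.6 RPKM in Il33- WAT-MSC, in the order of the replicate numbers. Lung Il33+ MSC held 42.2, 37.2 and 74.7 RPKM and endothelial cells 32.95, 21.3 and 51.5 RPKM. The 3 stromal populations overlapped throughout, and replicate 3 held the most Igf1 in all 5 populations. Epithelial cells held 2.10, 1.73 and 2.86 RPKM, below every other library.

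**Figure D1:**
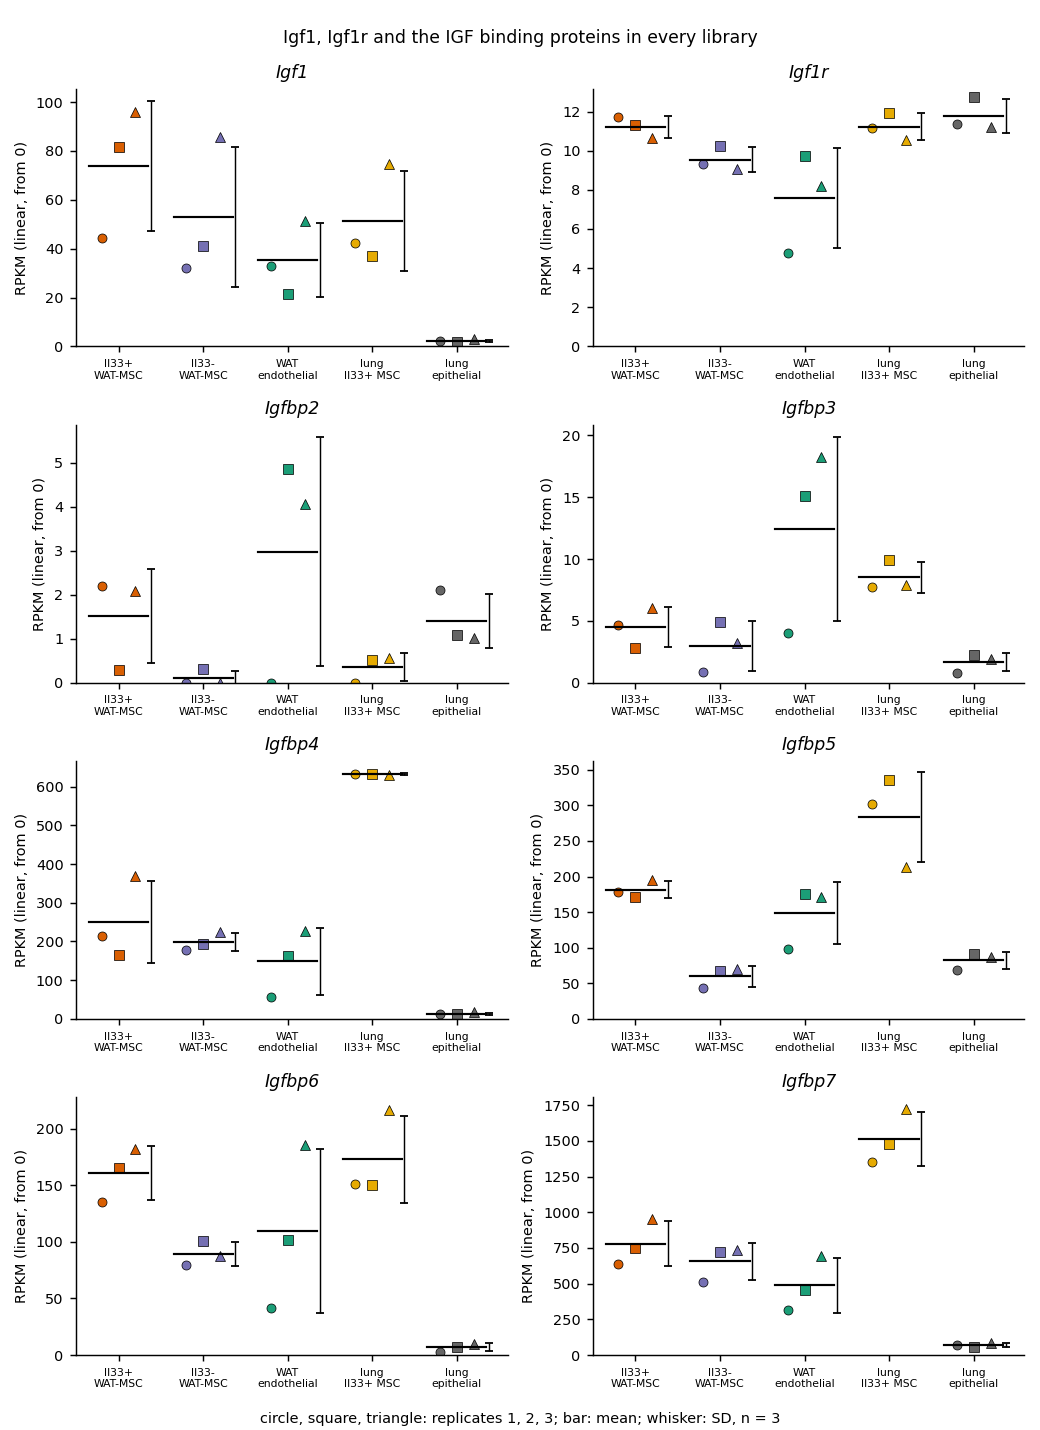
RPKM (linear axes from 0) of Igf1, Igf1r and Igfbp2 to Igfbp7 in each of the 15 libraries, with circles, squares and triangles for replicates 1, 2 and 3, a bar for the mean and a whisker for the SD (n = 3). Igfbp5 separates the Il33+ (171 to 195 RPKM) from the Il33- WAT-MSC (43.2 to 69.5 RPKM), Igfbp4 sits at 631 to 634 RPKM in lung Il33+ MSC, and the epithelial libraries are lowest for Igf1, Igfbp4, Igfbp6 and Igfbp7.

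Most of the stromal Igf1 RPKM was assigned to transcripts with the first leader. Transcripts with the second leader made up 6.96% ± 2.94 of the Igf1 RPKM in Il33+ WAT-MSC, 5.24% ± 1.96 in Il33- WAT-MSC and 5.67% ± 2.96 in lung Il33+ MSC (SD, n = 3 each). In endothelial cells the share was 37.4%, 29.8% and 1.28% in replicates 1, 2 and 3, so these libraries differed among themselves by more than the stromal populations did. Epithelial shares of 39.5%, 5.20% and 60.1% rest on totals of 1.73 to 2.86 RPKM and were not compared. Transcripts with the alternative exon made up 40.9% to 47.8% of Igf1 RPKM in all 15 libraries. Within each library the ratio of transcripts with and without this exon was nearly the same behind both leaders, with a largest difference of 0.017 over the 14 libraries in which the rarest of the 4 reached 0.3 RPKM. The 4 transcript levels are therefore not 4 independent readings.

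**Figure D2:**
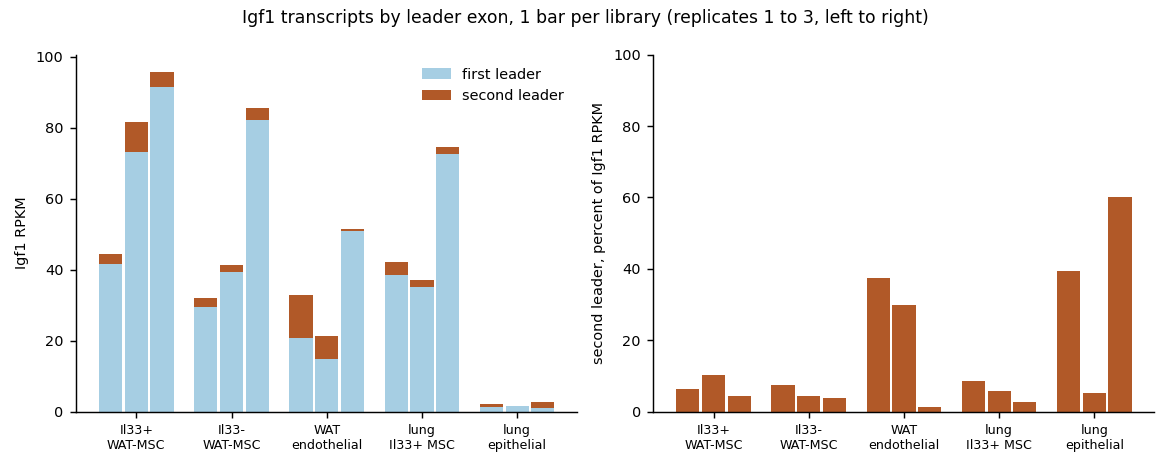
Igf1 RPKM by leader exon (left, stacked bars) and the second-leader share as a percent of Igf1 RPKM (right), 1 bar per library with replicates 1 to 3 from left to right. The stromal shares lie between 2.64% and 10.2%, whereas the endothelial libraries range from 1.28% to 37.4% and the epithelial ones from 5.20% to 60.1%.

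Igf1r, the receptor, was close to even across the populations. It stood at 11.2 ± 0.547 RPKM in Il33+ WAT-MSC, 9.55 ± 0.616 in Il33- WAT-MSC, 11.2 ± 0.692 in lung Il33+ MSC, 7.57 ± 2.55 in endothelial cells and 11.8 ± 0.857 in epithelial cells (SD, n = 3 each). The lowest library was endothelial replicate 1, at 4.77 RPKM. None of the 4 comparisons of populations called it.

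Among the binding proteins, Igfbp7, Igfbp4, Igfbp5 and Igfbp6 were abundant and Igfbp3 and Igfbp2 were scarce. Igfbp7 had the highest level of the family in every library except epithelial replicates 2 and 3, where Igfbp5 was higher, and its mean ranked 14 among all gene symbols in lung Il33+ MSC and 24 in either WAT stroma. The summed RPKM of Igfbp2 to Igfbp7 was 2613 ± 174 in lung Il33+ MSC, 1379 ± 287 in Il33+ WAT-MSC, 1008 ± 172 in Il33- WAT-MSC, 909 ± 391 in endothelial cells and 176 ± 22.0 in epithelial cells (SD, n = 3 each). Igfbp7 made up 65.0% ± 1.89 of that sum in Il33- WAT-MSC and 40.1% ± 6.36 in epithelial cells.

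The make-up of the remaining, high-affinity proteins was as follows. Of the summed RPKM of Igfbp2 to Igfbp6, Igfbp5 accounted for 31.0% ± 4.50 in Il33+ WAT-MSC and for 17.0% ± 2.29 in the Il33- fraction (SD, n = 3). The share was 25.7% ± 5.13 in lung Il33+ MSC, 38.6% ± 10.5 in endothelial cells and 78.2% ± 3.26 in epithelial cells. The epithelial shares (74.4% to 80.4%) lay above those of every other library. Igfbp4, the substrate of pappalysin, was the largest component on average in the 3 stromal populations, at 40.7% ± 8.08 in Il33+ WAT-MSC, 56.7% ± 3.59 in Il33- WAT-MSC and 57.7% ± 1.47 in lung Il33+ MSC. Per RPKM of Igf1, the Igfbp2 to Igfbp6 sum was 6.2 to 12.1 in Il33+ WAT-MSC, 4.50 to 9.41 in Il33- WAT-MSC and 14.3 to 30.4 in lung Il33+ MSC, so the lung stromal libraries did not overlap those of WAT stroma. The ratio was 6.05 to 21.6 in endothelial cells, which overlapped both lung and WAT stroma. In epithelial cells, with little Igf1, it was 40.8 to 65.8, above every other library.

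**Figure D3:**
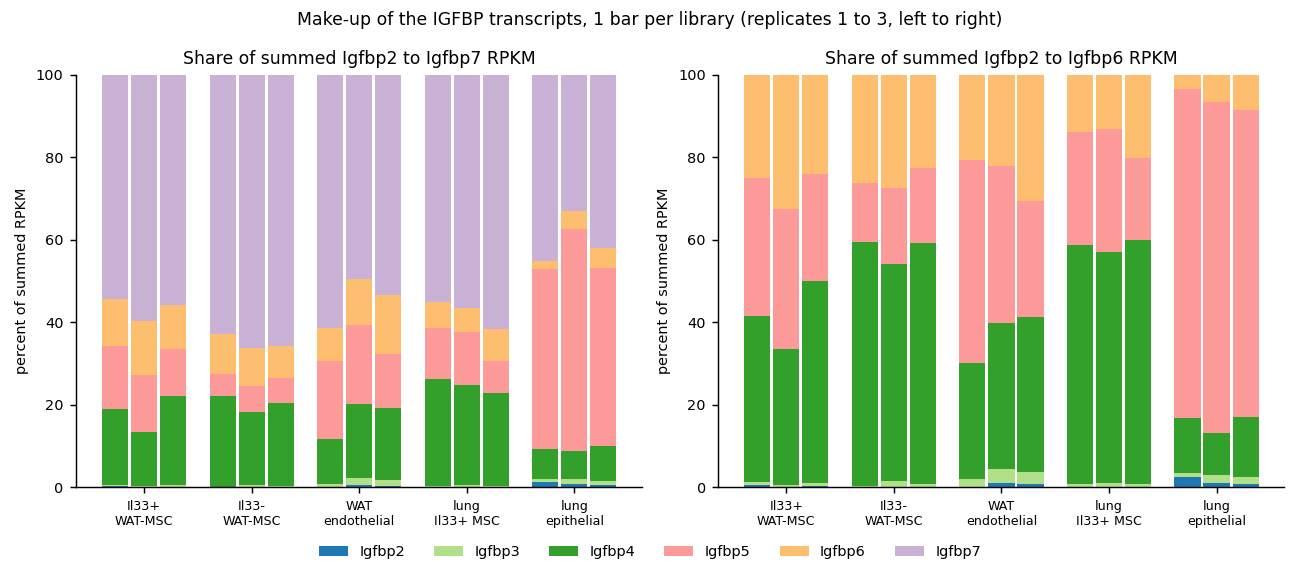
Share of each binding protein in the summed RPKM of Igfbp2 to Igfbp7 (left) and of Igfbp2 to Igfbp6 (right), in percent, 1 stacked bar per library with replicates 1 to 3 from left to right. Igfbp5 fills 74.4% to 80.4% of the right-hand bars in epithelium and 14.3% to 18.5% in Il33- WAT-MSC.

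The comparison of Il33+ with Il33- WAT-MSC asked how stromal cells of the same tissue and gate differ with the reporter. Igfbp5, a heparin- and matrix-binding member, was 179, 171 and 195 RPKM in the Il33+ libraries and 43.2, 67.9 and 69.5 RPKM in the Il33- libraries. Every Il33+ library was above every Il33- library. The means of 182 ± 12.2 and 60.2 ± 14.7 RPKM (SD, n = 3 each) differed 3.02-fold. On the log2(RPKM + 1) scale the difference was 1.61 (SE 0.24, 95% interval 1.08 to 2.13, adjusted p = 0.00764 with limma). It was 1.67 among the 4 libraries of the first sequencing lane and 1.48 between the 2 of the second. Of the 7 members tested, Igfbp5 was the one called, and 1.57% of all 8448 genes were called in either direction, 0.923% higher and 0.651% lower in Il33+ WAT-MSC. The median log2 difference was 0.53 over the 7 members and -0.0064 over all genes tested.

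Igfbp6, which favours IGF2 over IGF1, was 135, 165 and 182 RPKM in Il33+ WAT-MSC and 79.3, 101 and 87.6 RPKM in Il33- WAT-MSC. These libraries did not overlap either, but the log2 difference of 0.84 (95% interval 0.35 to 1.32) missed the threshold (adjusted p = 0.108 with limma). Igfbp6 passed in 2 of the 15 alternatives. Its adjusted p with limma was 0.0430 with median-ratio scaling of the libraries and 0.681 with all 15 libraries fitted together. The third member without overlap was Igf1r, at 10.6 to 11.7 against 9.06 to 10.2 RPKM, and 17.5% of all genes tested were without overlap. The differences of Igf1 (log2 0.53, 95% interval -0.30 to 1.36), Igfbp3 (0.57, -0.41 to 1.56), Igfbp4 (0.26, -0.39 to 0.90) and Igfbp7 (0.25, -0.34 to 0.83) were within the spread of the libraries. Igfbp2 was below the filter, with 2.20, 0.29 and 2.08 RPKM in Il33+ WAT-MSC and 0, 0.30 and 0 RPKM listed in Il33- WAT-MSC.

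Genes that act on the binding proteins moved in the same comparison. Of 8 listed proteases and inhibitors, 6 were tested, 2 were higher and 1 was lower in Il33+ WAT-MSC. The share of all genes called in either direction was 1.57%. Pappa was 1.25, 1.73 and 2.39 RPKM in Il33+ and 5.19, 9.63 and 10.5 RPKM in Il33- WAT-MSC (log2 difference -1.73, SE 0.35, adjusted p = 0.0346 with limma), with no overlap. Stc2, whose product inhibits pappalysin, was 22.1, 12.2 and 33.4 RPKM in Il33+ and 0.34, 0.67 and 1.29 RPKM in Il33- WAT-MSC (log2 difference 3.67, SE 0.39, adjusted p = 0.00152). The protease and its inhibitor thus lay on opposite sides. Mmp3, a stromelysin that can cut IGFBP3 and IGFBP5, was 24.3, 15.04 and 23.9 RPKM in Il33+ and 0.49, 3.16 and 1.63 RPKM in Il33- WAT-MSC (log2 difference 3.09, SE 0.39, adjusted p = 0.00382).

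Stc2 and Mmp3 passed the threshold in all 15 alternative settings, but Pappa passed in 8 of 15. Leaving out any 1 Il33+ library, or replicate 2 or 3 of the Il33- libraries, lost the call for Pappa, with adjusted p between 0.0877 and 0.164, and so did dropping the filter on low values (0.120). Of the 5 CCN proteins with a value, which carry an IGFBP-like domain, Ctgf was higher in Il33+ WAT-MSC (13.98 against 4.16 RPKM on average, log2 difference 1.57, adjusted p = 0.0370), and it held in 6 of the 15 alternatives (adjusted p 0.0139 to 0.163). It missed the threshold without any 1 of the Il33+ libraries or without Il33- replicate 1 or 3 (adjusted p 0.0733 to 0.160). None of the 7 ligands and receptors, 8 growth hormone axis genes or 25 IGF1R signalling genes tested with limma was called, and 1, 2 and 1 of them had an unadjusted p under 0.05. The 1 ligand was Igf2, at 4.84 against 0.523 RPKM without overlap (log2 difference 1.87, adjusted p = 0.0618 with limma). All 5 CCN genes tested were higher in Il33+ WAT-MSC with an unadjusted p under 0.05. Of these, 4 were without overlap, against 17.5% of all genes. Il33+ WAT-MSC also held more mesothelial marker RNA, at a sum over 7 genes of 33.1, 90.7 and 102 RPKM against 20.4 to 29.5 RPKM in Il33- WAT-MSC. Of these genes, Wt1 was lower on average in Il33+ WAT-MSC (11.8 against 15.9 RPKM). The summed mural markers (8 genes) were 46.8 to 52.8 RPKM in Il33+ and 28.5 to 42.9 RPKM in Il33- WAT-MSC, without overlap. Abcc9 averaged 19.1 against 1.59 RPKM, whereas Pdgfrb and Notch3 averaged lower in Il33+ WAT-MSC. The summed leukocyte markers (5 genes) went the other way, at 6.52 to 10.99 against 17.0 to 37.1 RPKM. The part of mesothelial, mural and leukocyte RNA in these differences was not tested.

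**Figure D4:**
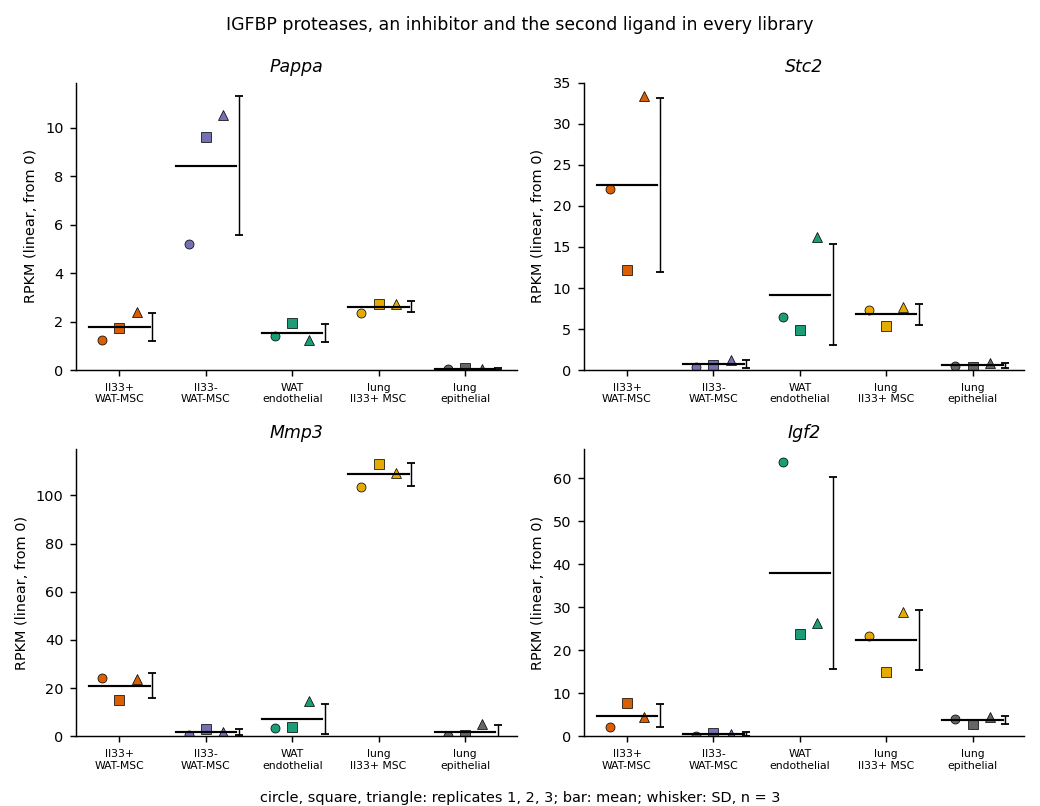
RPKM (linear axes from 0) of Pappa, Stc2, Mmp3 and Igf2 in each library, with circles, squares and triangles for replicates 1, 2 and 3, a bar for the mean and a whisker for the SD (n = 3). Pappa is highest in Il33- WAT-MSC (5.19 to 10.5 RPKM), Stc2 in Il33+ WAT-MSC on average (12.2 to 33.4 RPKM), Mmp3 in lung Il33+ MSC (103 to 113 RPKM) and Igf2 in endothelial replicate 1 (63.6 RPKM).

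Il33+ stromal cells of WAT and lung were compared to see how far the same reporter-positive stroma differs between tissues. Igfbp4 was 215, 166 and 370 RPKM in Il33+ WAT-MSC and 634, 634 and 631 RPKM in lung Il33+ MSC. The lung libraries were all higher and nearly equal to each other. The log2 difference, WAT minus lung, was -1.42 (SE 0.27, 95% interval -2.02 to -0.81, adjusted p = 0.0120 with limma). Igfbp7 was 638, 750 and 952 RPKM in Il33+ WAT-MSC and 1349, 1477 and 1721 RPKM in lung Il33+ MSC, again without overlap (log2 difference -0.97, SE 0.23, 95% interval -1.48 to -0.46, adjusted p = 0.0318).

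These were 2 of 7 members tested, against 6% of all genes called in either direction, 3.5% lower and 2.5% higher in WAT. With all 15 libraries fitted together neither call was made (adjusted p = 0.0838 for Igfbp4 and 0.111 for Igfbp7 with limma). Leaving out single libraries also lost them. Without lung replicate 1 the adjusted p was 0.0580 for Igfbp4 and 0.0845 for Igfbp7, and without lung replicate 2 it was 0.0725 and 0.163. Igfbp7 also missed the threshold without lung replicate 3 (adjusted p = 0.108) or without Il33+ WAT-MSC replicate 1 (0.131) or 2 (0.0556). With lane as a covariate the adjusted p of Igfbp7 was 0.0506. Within lanes, Igfbp4 differed by -1.74 in the first (2 WAT libraries, 1 lung) and -0.77 in the second (1 WAT, 2 lung), and Igfbp7 by -0.96 and -0.74. Summed marker RNA of other cell types also differed between these libraries without overlap. The summed leukocyte markers (5 genes) were 179 to 230 RPKM in lung Il33+ MSC and 6.52 to 10.99 RPKM in Il33+ WAT-MSC. Mural markers (8 genes) were at 124 to 132 against 46.8 to 52.8 RPKM and epithelial markers (8 genes) at 179 to 544 against 73.2 to 145 RPKM. Single transcripts weighed heavily in these sums: Lyz2 averaged 127 against 3.45 RPKM, Abcc9 84.6 against 19.1 and Scgb1a1 255 against 94.6. The mural genes Rgs5 (0.503 against 11.9 RPKM), Cspg4 and Des and the epithelial genes Krt8, Krt18 and Epcam averaged lower in lung. The summed mesothelial markers (7 genes) went the other way, at 1.35 to 4.06 RPKM in lung Il33+ MSC and 33.1 to 102 RPKM in Il33+ WAT-MSC. The part of this marker RNA in the differences was not tested.

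Igfbp3 and Igfbp5 were likewise without overlap and higher in lung, but did not pass (adjusted p = 0.153 and 0.145 with limma). Igfbp3 was 4.70, 2.82 and 6.06 RPKM in WAT and 7.72, 9.94 and 7.89 RPKM in lung (log2 difference -0.82, 95% interval -1.46 to -0.19), and the interval for Igfbp5 was -1.08 to -0.15. The share of all tested genes without overlap was 23.1%. Igf1r (log2 difference -0.00062, 95% interval -0.45 to 0.45), Igfbp6 (-0.092, -0.56 to 0.38) and Igf1 (0.51, -0.21 to 1.24) did not differ beyond the spread, and Igfbp2 was below the filter, with 0, 0.52 and 0.55 RPKM in lung. The median log2 difference was -0.62 over the 7 members and 0.032 over all genes.

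Igf2, the other IGF ligand and known as an imprinted fetal growth factor, was lower in WAT stroma, at 2.28, 7.69 and 4.56 RPKM against 23.3, 15.1 and 28.8 RPKM in lung (log2 difference -2.07, SE 0.36, adjusted p = 0.00762 with limma). It was the 1 called gene of 7 ligands and receptors. The share of all genes called in this comparison was 6%, with 3.5% lower and 2.5% higher in WAT. Of the 8 proteases and inhibitors tested, Pappa2, Mmp3 and Stc1 were lower and Adam12 and Stc2 higher in WAT (adjusted p 0.000202 to 0.0229). Mmp3 was 103 to 113 RPKM in lung against 15.04 to 24.3 RPKM in WAT (log2 difference -2.34, adjusted p = 0.000202). Pappa2, Mmp3, Stc1 and Adam12 held in all alternatives in which they were tested, as did Igf2. Stc2 (log2 difference 1.499, adjusted p = 0.0229) missed the threshold without Il33+ WAT-MSC replicate 1 or 3 or without any 1 lung library, with adjusted p between 0.0580 and 0.129. Of the 5 CCN genes tested, Cyr61 (log2 difference -1.81) and Ctgf (-1.85) were lower and Nov (2.09) was higher in WAT, each in all 15 alternatives.

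**Figure D5:**
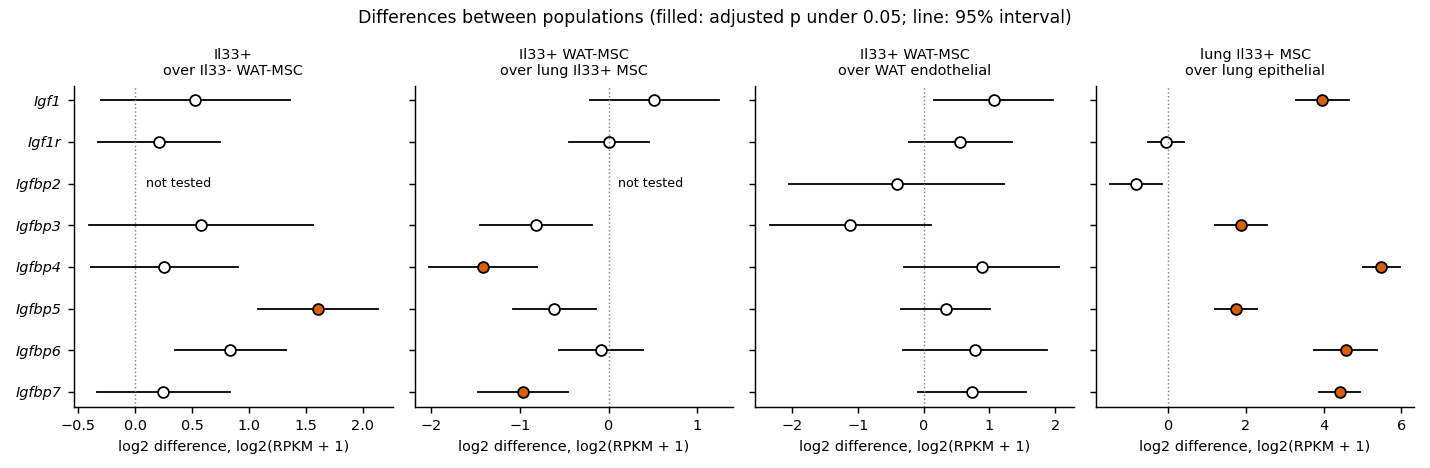
Log2 difference between populations on the log2(RPKM + 1) scale for each member in the 4 comparisons, with 95% intervals from limma and filled points for an adjusted p under 0.05. The filled points are Igfbp5 in the first panel, Igfbp4 and Igfbp7 in the second and 6 members in the fourth, and the third panel has none. The horizontal scale differs between panels.

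Stroma and endothelium of WAT were compared next. None of the 8 members passed limma (3.9% of 8665 genes did, 0.565% higher and 3.34% lower in stroma), 1 member (Igf1) had an unadjusted p under 0.05 (0.0264), and fitting all 15 libraries together also called 0. Endothelial replicate 1 stood apart from the other endothelial libraries. It held 55.8 RPKM of Igfbp4 against 164 and 226, 98.1 of Igfbp5 against 176 and 171, 41.4 of Igfbp6 against 102 and 185, and 316 of Igfbp7 against 455 and 692. The median of the 8 stromal markers in the endothelial libraries was 32.6%, 36.3% and 63.1% of their Il33+ WAT-MSC mean. Igfbp4 stood at 22.3%, 65.3% and 90.4%, Igfbp6 at 25.7%, 63.3% and 115%, and Igfbp7 at 40.5%, 58.3% and 88.7% on the same scale. These members were lowest in the library with the lowest stromal marker level and highest in the library with the highest, and how much of their RNA came from stromal cells was not tested. The summed mural markers (8 genes) were 263, 280 and 215 RPKM in the endothelial libraries and 46.8 to 52.8 RPKM in Il33+ WAT-MSC. Rgs5 averaged 188 against 11.9 RPKM, whereas Abcc9 and Pdgfrb averaged lower in endothelium. The part of mural RNA in the member levels was not tested.

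Igfbp3, the main carrier of circulating IGF, had its highest mean in endothelial cells, as did Igfbp2. It was 4.05, 15.1 and 18.2 RPKM there and 2.82 to 6.06 RPKM in Il33+ WAT-MSC, or 89.5%, 333% and 402% of the stromal mean. Replicates 2 and 3 were above every stromal library of either tissue, and replicate 1 was within the range of WAT stroma. The log2 difference, stroma minus endothelium, was -1.11 (95% interval -2.34 to 0.11, adjusted p = 0.378 with limma). Without endothelial replicate 1 it was -1.71 with an adjusted p of 0.0341, the 1 of 15 alternatives past the threshold. That library held the most endothelial marker RNA (635 RPKM against 536 and 526) and the least stromal marker RNA (1802 RPKM against 2071 and 3739). Igfbp2 was listed at 0 in endothelial replicate 1 and was 4.85 and 4.06 RPKM in replicates 2 and 3, where the mesothelial marker sum was 177 and 175 RPKM against 49.0 RPKM in replicate 1. Igfbp3 was also lowest in replicate 1, and the part of mesothelial RNA in the levels of Igfbp2 and Igfbp3 was not tested.

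For the other members the 95% intervals of the log2 difference from endothelium were 0.16 to 1.97 for Igf1, -0.22 to 1.34 for Igf1r, -0.29 to 2.06 for Igfbp4, -2.04 to 1.23 for Igfbp2, -0.34 to 1.01 for Igfbp5, -0.31 to 1.88 for Igfbp6 and -0.089 to 1.55 for Igfbp7. Igf1r, without overlap between the groups, was the 1 such member, against 23.2% of all genes. The difference of Igfbp4 was 0.89, or 0.30 without endothelial replicate 1. The median difference was 0.65 over members and 0.18 over all genes, and median-ratio scaling brought the latter to 0.023. Among the listed pathway genes 2 were called, 1 of 7 ligands and receptors and 1 of 7 proteases and inhibitors tested. None of the 8 growth hormone axis, 25 IGF1R signalling or 5 CCN genes tested was called. The share of all genes called was 3.9%, with 3.34% lower in stroma. The called genes were Igf2 (37.95 against 4.84 RPKM, log2 difference -2.71, adjusted p = 0.0171 with limma) and Stc1 (10.2 against 0.833 RPKM, -2.60, adjusted p = 0.0122), both higher in endothelium. Each missed the threshold without 1 of 3 libraries: both without endothelial replicate 2 (adjusted p = 0.0696 and 0.0931) or Il33+ WAT-MSC replicate 1 (0.0750 and 0.0707), Igf2 without Il33+ replicate 3 (0.0668) and Stc1 without Il33+ replicate 2 (0.0519).

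Lung stroma and epithelium differed in most members. Igf1, Igfbp3, Igfbp4, Igfbp5, Igfbp6 and Igfbp7 were higher in lung Il33+ MSC, 6 of 8 tested, in a comparison that called 43% of all genes, 24.4% in this direction and 18.5% in the other. Igfbp4 had the largest difference, with 631 to 634 RPKM in stroma and 11.6, 11.5 and 16.9 RPKM in epithelium (log2 difference 5.49, SE 0.21, adjusted p = 7.01e-07 with limma). Igfbp6 (4.56, SE 0.36), Igfbp7 (4.42, SE 0.23) and Igf1 (3.97, SE 0.30) followed, with adjusted p between 1.17e-06 and 8.58e-06. Relative to the lung stromal mean, the epithelial libraries held 1.82% to 2.67% of Igfbp4, 1.78% to 5.79% of Igfbp6, 3.70% to 5.56% of Igfbp7 and 3.37% to 5.57% of Igf1. The median of the 8 stromal markers there was 2.03% to 3.04%, and single markers ranged from 0.89% to 17.6%. These members thus stood within the range of the stromal markers themselves.

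Igfbp5 and Igfbp3 kept more of their level in epithelium. Igfbp5 was 69.0, 91.6 and 86.8 RPKM, or 24.3% to 32.3% of the lung stromal mean, against 213 to 336 RPKM in stroma, without overlap (log2 difference 1.75, SE 0.24, adjusted p = 0.000277 with limma). Its mean ranked 158 among all genes of the epithelium and was above that of Il33- WAT-MSC. Igfbp3 was 0.82 to 2.23 RPKM, or 9.63% to 26.2% (log2 difference 1.88, SE 0.30, adjusted p = 0.000733). Its 9.63% in epithelial replicate 1 lay below the highest stromal marker of that library (15.1%). With quantile normalization the differences were 0.85 for Igfbp5, 3.47 for Igfbp7 and 4.88 for Igfbp4, each still past the threshold.

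Igf1r did not pass the test between these cells (11.2 against 11.8 RPKM, log2 difference -0.063, 95% interval -0.53 to 0.40). Igfbp2 was 2.11, 1.08 and 1.01 RPKM in epithelium and at most 0.55 RPKM in lung stroma, without overlap. It missed the threshold (log2 difference -0.82, adjusted p = 0.0509 with limma) and passed in 2 of 11 alternatives. Its adjusted p was 0.0454 without the filter on low values and 0.274 with all 15 libraries fitted together. The 7 members without overlap stand against 53.4% of all genes. The median difference was 2.92 over members and 0.13 over all genes, and the latter was -0.055 after median-ratio scaling.

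The other genes of the pathway were called in both directions, and their counts stand against the 43% of all genes called in this comparison. Of 7 ligands and receptors tested, 4 were higher in lung stroma: Igf1, Igf2 (22.4 against 3.80 RPKM), Lrp1 (128 against 5.27 RPKM) and the IGF2 clearance receptor Igf2r (16.8 against 7.68 RPKM). Igf2r missed the threshold without lung replicate 1 (adjusted p = 0.0632 with limma). All 8 proteases and inhibitors were higher in lung stroma, led by Mmp3 (109 against 1.91 RPKM, log2 difference 5.67, adjusted p = 2.99e-05 with limma), and the smallest difference was that of Adam12 (1.13, adjusted p = 0.0144), which held in 8 of 14 alternatives. Adam12 missed the threshold without any 1 lung stromal library or without epithelial replicate 2 or 3 (adjusted p 0.0531 to 0.0857). Of 8 growth hormone axis genes, 4 were higher in stroma (Ghr, Stat5b, Socs1 and Socs3), and Socs2, a feedback inhibitor of growth hormone signalling, was lower (4.59 against 13.1 RPKM, log2 difference -1.34, adjusted p = 0.00201). Of 27 IGF1R signalling genes tested, 11 were called, a share near that of all genes. Of these, 9 were higher in stroma, including the adaptors Irs1 (log2 difference 2.47) and Irs2 (2.03) and the receptor-binding Grb10 (2.92). Among the higher ones, Shc1 and Akt2 missed the threshold without lung replicate 1 or 2 (adjusted p 0.0589 to 0.0718 with limma). The 2 lower ones were Grb14 (0.667 against 9.47 RPKM, -2.65, adjusted p = 0.000103) and the PI3-kinase subunit Pik3cb (-1.63, adjusted p = 0.00209). Grb10 and Grb14, related adaptors that bind the insulin and IGF1 receptors, thus lay on opposite sides while Igf1r was level. None of the 25 signalling genes tested was called by limma in any of the other 3 comparisons, in which 1 (Il33- WAT-MSC), 1 (lung Il33+ MSC) and 3 (endothelium) had an unadjusted p under 0.05.

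The 4 comparisons are not independent, since Il33+ WAT-MSC enters 3 of them and lung Il33+ MSC 2. To rank all populations, the 15 libraries were fitted together and each member's populations ordered by mean log2(RPKM + 1). Of 32 neighbouring pairs 5 differed beyond the spread, each involving the epithelium at the lower end: endothelium over epithelium for Igf1, Igfbp4, Igfbp5 and Igfbp7 (36.4% of all genes called in that pair) and Il33- WAT-MSC over epithelium for Igfbp6 (38.1%). In the other neighbouring or discussed pairs, the share of all genes called was 1.13% for Il33+ against Il33- WAT-MSC, 3.32% for Il33+ WAT-MSC against lung Il33+ MSC, 8.05% for Il33+ WAT-MSC against endothelium and 36.8% against epithelium. It was 5.63% for Il33- WAT-MSC against lung Il33+ MSC, 10.5% against endothelium, and, for lung Il33+ MSC, 10.8% against endothelium and 35.6% against epithelium. Igfbp5 ran from lung Il33+ MSC through Il33+ WAT-MSC, endothelium and epithelium to Il33- WAT-MSC. In the joint fit Il33- WAT-MSC lay below lung Il33+ MSC by 2.22 (adjusted p = 7.74e-05), below Il33+ WAT-MSC by 1.61 (0.00801) and below endothelium by 1.27 (0.00543) on the log2 scale, whereas its difference from epithelium was -0.47 (95% interval -1.05 to 0.11, adjusted p = 0.194). For Igf1r and Igfbp2 no neighbours were separated, and for Igfbp3 none either, although endothelium exceeded Il33- WAT-MSC (by a log2 difference of 1.69, adjusted p = 0.0435) and epithelium (2.17, adjusted p = 0.00298).

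Across the 15 libraries, Igfbp4 and Igfbp7 had the closest profiles of any pair of members (Pearson r = 0.989 of log2 values), and Igf1, Igfbp4, Igfbp6 and Igfbp7 formed a group with r between 0.882 and 0.989. Igfbp5 stood further off (0.392 with Igf1, 0.576 with Igfbp7, 0.740 with Igfbp3), and Igf1r followed none of the others (-0.259 to 0.229). Among 9981 genes the 3 most like Igfbp4 were Col1a1 (r = 0.992), Igfbp7 and Peg3, and those most like Igfbp7 were Col1a2 (0.993), Pcolce and Serping1. Islr, Dpt and Fstl1 were most like Igf1 (0.974 to 0.979), and Mfap5, Adgrd1 and Fndc1 most like Igfbp6 (0.976 to 0.980). These are descriptions over 15 points that share 5 populations, in which the 3 epithelial libraries are the lowest for Igf1, Igfbp4, Igfbp6 and Igfbp7. Among the nearest to Igfbp5 were Cldn1 (0.926) and Abcc9 (0.909), nearest to Igfbp3 were Hspa12b (0.943), Dock6 and Midn, among the nearest to Igf1r were Dzip1 (0.931) and Krcc1 (0.906), and nearest to Igfbp2 were Yes1 (0.880), 2510002D24Rik and Stard7.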

How the data were processed

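RNA of the sorted cells was amplified with the Ovation RNA-seq V2 system, and libraries were sequenced in 2 lanes (8 and 7 libraries). According to the submitters' notes, reads were aligned with TopHat2 in Partek to mm10, and the authors deposited RPKM values with 2 decimals for 12698 RefSeq transcripts. RPKM divides by length and by mapped reads, so a library dominated by few transcripts shows lower values elsewhere. Transcripts absent from the list were not analysed here, and 0 value columns lacked a sample.

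Values were summed per symbol over listed transcripts, which for Igf1 and Igfbp7 number 4 and 2. Groups and replicate numbers came from the sample titles. Populations were compared with limma 3.58.1 in R 4.3.3 (lmFit, eBayes with trend) on log2(RPKM + 1). Tested genes reached an RPKM of 1 in 3 or more of the 6 libraries. P-values were adjusted by Benjamini-Hochberg over all tested genes, and 0.05 was the threshold. The added 1 understates the change of low genes. The fit was also run on simulated data with independent genes and equal spread in both populations. These libraries need not share those properties, so that run does not show that the calls hold here. Other calculations used Python 3.11.15, numpy 2.4.6, pandas 2.3.3 and matplotlib 3.10.9. An exact permutation test of 3 against 3 libraries cannot give a p below 0.1.

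The members and gene lists were chosen with earlier results of these data known. Named genes were the members, listed pathway genes past the threshold and the 3 genes most like each member. A few genes that this rule names are not reported here. Of the listed genes, Insrr, Igfbp1, Igfals, Tsc1, Tsc2, Rptor, Foxo4, Wisp3, and 10 of the marker genes had no value used here. Across all libraries the summed marker RPKM was 5.99 to 280 (mural), 6.52 to 1376 (leukocyte), 56.7 to 209515 (epithelial) and 0.10 to 15.3 (adipocyte). The highest mural and adipocyte sums were in endothelial libraries. The highest leukocyte and epithelial sums were in epithelial libraries, where the leukocyte-listed Lyz2 averaged 1006 RPKM. Where nothing states that libraries came from separate mice, p-values measure the spread between these libraries. The alternatives were another pseudocount, other filters, median-ratio scaling, quantile normalization, a replicate block, a lane term, a joint fit, the most abundant transcript and each library left out. The listed pathway genes past the threshold were added to these after seeing the data.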

Additional observations from a re-analysis of the deposited data

How the results depend on the processing

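Of 444 member values recomputed under the alternatives, 419 kept their direction and side of the threshold, 12 lost and 5 gained the threshold, and 8 changed sign. None of the 8 was past the threshold: against Il33- WAT-MSC, Igfbp4 was -0.064 without Il33+ WAT-MSC replicate 3 (up to 0.51 when another library was left out). Against lung stroma, Igfbp6 was 0.028 without Il33+ WAT-MSC replicate 1 and 0.082 without lung replicate 3 (lowest -0.19 when 1 library was left out), and Igf1r was 0.035 without Il33+ WAT-MSC replicate 3 and 0.041 without lung replicate 2 (lowest -0.040 when 1 library was left out and -0.072 over all alternatives). Against endothelium, Igfbp5 was -0.0096 with quantile normalization, and Igfbp2 was 0.021 without Il33+ WAT-MSC replicate 2 and 0.053 without endothelial replicate 2, but -1.22 without endothelial replicate 1. Igfbp5 stayed past the threshold between the WAT fractions in all 15 alternatives (log2 difference 1.39 to 1.73, highest adjusted p = 0.0417 with limma).

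The number of members called between the WAT fractions became 2 with median-ratio scaling and 2 with the replicate block, in both cases by adding Igfbp6 (block: adjusted p = 0.0479). Between WAT and lung stroma it was 1 without the filter, 1 with quantile normalization, 1 with lane as a covariate and 0 in the joint fit, and 0 to 2 when 1 library was left out. Against endothelium it was 0 to 1 when 1 library was left out, and against epithelium no alternative moved it past 1.5 times. Separated neighbours numbered 8 with median-ratio scaling and 4 to 8 when 1 library was left out, with 8 without endothelial replicate 1. Unless stated above, the cause was not tested.

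Calls over all genes moved by more than 1.5 times between the WAT fractions (133, against 45 without the filter, 232 with the replicate block and 49 to 121 when 1 library was left out), between WAT and lung stroma (513, against 331 in the joint fit and 191 to 447) and against endothelium (338, against 803 in the joint fit and 56 to 261). In the joint fit 39.2% of the endothelial calls were higher in stroma, against 14.5% in the separate comparison. That share was 51.3% without endothelial replicate 3, 18.1% without endothelial replicate 1 and 0.613% to 1.79% without any 1 of the other libraries. The main fits did not take the replicate numbers as pairs. Same-numbered libraries deviated together only weakly (mean r 0.0056 to 0.087 per comparison). Differently numbered libraries were not set beside them, so these values do not show that pairing is absent. The replicate block moved no member other than Igfbp6 across the threshold. Depth per gene is unknown, so low members such as Igfbp2 carry no counting interval.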
